A study of Homo sapiens with 30 samples.

Results

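Clone 10 is a line grown from Rh30 cells in which the fusion protein PAX3-FOXO1 carries an FKBP degradation tag, and it was set against the parental Rh30 cells it derives from. The comparison took the 2 clone 10 libraries and the 2 parental libraries, 4 of the 30 samples of the series, and all 14175 genes of 23261 that passed a minimum of 10 counts. Rh30 is an established human alveolar rhabdomyosarcoma line. Both groups are labelled as DMSO treated, both were grown in RPMI-1640 with 10% FetalPlex, a serum substitute, and neither received dTAG, the compound that directs an FKBP-tagged protein to the proteasome. Parental cells carry no tag. Clones 4, 11 and 12 of the same tagging, with 2 libraries each and the same DMSO label, were measured beside them and are used here to ask whether a difference was met in clone 10 or in the other clones as well. Clone 10 is 1 clone, so the tag, the handling that produced clones and the descent from a single cell cannot be told apart in its differences from parental cells. Nothing in the labels tells whether replicate libraries were taken from different cultures, and the p-values below rest on the spread of these libraries, which may be technical.

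PAX3-FOXO1 joins the DNA-binding part of PAX3, a transcription factor of muscle precursors, to the activating part of FOXO1, and it keeps rhabdomyosarcoma cells in a proliferating, incompletely differentiated muscle state. Tumour cell lines are mixtures of cells that differ in DNA copy number and in stably silenced genes, and a line grown from 1 cell inherits the state of that cell. Germline genes that DNA methylation holds silent, the clustered protocadherins and imprinted genes are known for such inherited on or off states.

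Total counts were 23773431 and 26834005 in parental cells, 22747634 and 19159020 in clone 10, and 17746684 to 26834005 over the 10 libraries of the clone table. The parental libraries stood apart in 2 ways. They lay close to each other, with a chi-square per degree of freedom of 1.82 against 19.2 between the clone 10 libraries and 13.4 to 48.8 in the other clones. All 4 clones also differed from parental cells along the GC content of transcripts, with a rank correlation across 12587 genes (88.8% of those tested) of 0.50 between GC content and the clone 10 difference and of 0.45, 0.57 and 0.52 for clones 4, 11 and 12, which share the parental libraries. Genes are not independent replicates, so this is a description. The same correlation was 0.08, -0.07 and -0.03 between clone 10 and clones 4, 11 and 12. With transcript length these 3 differences correlated at 0.11, 0.36 and 0.34, that of clone 10 minus parental at -0.03, and that between the 2 clone 10 libraries at 0.38. The comparisons with clones 11 and 12 thus carry a length trend, of about the size met between clone 10 replicates. Genes in the lowest decile of GC content (29.6% to 38.6%) had a median log2 difference of -0.78 and 63.6% of them were called lower, while in the highest decile the median was 0.58 and 51.8% were called higher. The part that GC content and length have in single differences was not tested, so counts are given as measured and again after each library's trend on GC content and transcript length had been taken out, a correction chosen after the data were seen.

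**Figure D1:**
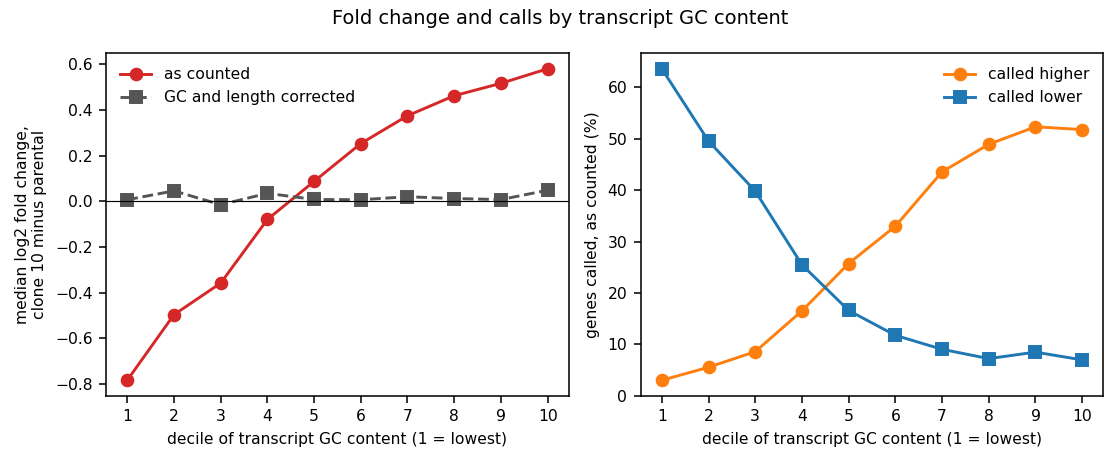
Clone 10 minus parental by decile of transcript GC content: median log2 fold change as counted and after the GC and length correction, and the percentage of genes called higher and lower. The median climbs from -0.78 in the first decile to 0.58 in the tenth as counted, and lies between -0.02 and 0.05 in every decile after the correction.

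The fusion partners came first as a check of the labels. PAX3 mRNA, which is counted from wild-type and fusion transcripts alike, was at 460.3 and 440.1 normalised counts in parental cells and at 592 and 482 in clone 10, a log2 fold change of 0.26 ± 0.31 (SE, n = 2 against 2, edgeR quasi-likelihood test with Benjamini-Hochberg adjustment, adjusted p = 0.512). FOXO1 mRNA was at 1618 and 1649 in parental cells and fell to 1095 and 763 in clone 10, a change of -0.81 ± 0.23 (adjusted p = 0.0134, same test). The groups do not overlap for either gene, but the same held for 11836 of the 14175 genes tested (83.5%). In both genes the clone 10 libraries differ more from each other than the parental ones do. The FOXO1 call was lost without clone 10 replicate 2 (-0.62, adjusted p = 0.0954), without parental replicate 1 (-0.83, adjusted p = 0.0504) and without parental replicate 2 (-0.80, adjusted p = 0.0572). FOXO1 was at 611 to 1276 normalised counts in the other 3 clones. No protein and no tag sequence was measured, so the counts do not check the tag itself.

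Across all genes, 7374 of 14175 (52%) were called different from parental cells by edgeR's quasi-likelihood test at a Benjamini-Hochberg adjusted p under 0.05. Of these 3942 (27.8%) were higher and 3432 (24.2%) lower in clone 10, and 3180 (22.4%) differed by at least 2-fold, 1496 higher (10.6%) and 1684 lower (11.9%). After the GC and length correction, 3080 of 12587 genes (24.5%) were called higher and 2847 (22.6%) lower, 896 (7.12%) and 979 (7.78%) of them by at least 2-fold. Of 6642 called genes that entered both fits, 2217 were called higher in both, 1859 lower in both and 35 in opposite directions, and 2531 lost the call. Called counts fell to 2413 higher and 2245 lower without parental replicate 1, and to 2370 and 2216 without parental replicate 2.

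Set against the other clones, clone 10 had 1686 genes higher (11.9%) and 1688 lower (11.9%) than clone 4, 3060 (21.6%) and 2894 (20.4%) than clone 11, and 2578 (18.2%) and 2427 (17.1%) than clone 12. Against the same parental libraries clone 4 had 3562 genes higher (25.1%) and 3161 lower (22.3%), clone 11 had 3755 (26.5%) and 3561 (25.1%), and clone 12 had 3946 (27.8%) and 3508 (24.7%). Genes that stand apart in clone 10, called in the same direction against parental cells and against each of clones 4, 11 and 12, were 779 (5.5%), 425 of them higher (3%) and 354 lower (2.5%). After the correction 1033 genes (8.21%) stood apart, 506 higher (4.02%) and 527 lower (4.19%). Of the 709 uncorrected ones that entered both fits, 302 higher and 246 lower genes stood apart in both. These counts depended on single libraries: 180 higher and 145 lower genes stood apart without clone 10 replicate 1, 270 and 257 without clone 10 replicate 2, 271 and 235 without parental replicate 1, 279 and 231 without parental replicate 2, 260 and 260 without clone 12 replicate 2, and 684 and 526 without clone 4 replicate 1.

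The largest differences were between absence and strong expression. GABRA3, a subunit of the GABA-A receptor, was at 0 and 0.727 normalised counts in parental cells and at 349 and 299.7 in clone 10. With 1 read in the parental libraries together against 649, it was 848-fold higher (95% exact counting interval 152 to 33550, for counting error only). It was at 0 to 1.23 in every library of the other 3 clones, so among these 10 libraries it was expressed in clone 10. ITGA11, the alpha subunit of an integrin that binds fibrillar collagen, rose from 4.1 and 4.36 to 515 and 597 (log2 fold change 6.99 ± 0.31, adjusted p = 4.53e-07, edgeR quasi-likelihood test with Benjamini-Hochberg adjustment) and was at 3.47 to 14.7 in the other clones. CMKLR1, the receptor for the chemoattractant chemerin, rose from 4.1 and 2.18 to 215 and 399. IGFBP7, a secreted IGF-binding protein, rose from 39.3 and 22.6 to 1008 and 1659. BGN, which encodes the matrix proteoglycan biglycan, rose from 43.4 and 46.6 to 1338 and 1711 (5.08 ± 0.32, adjusted p = 4.17e-06) and was at 10.8 to 30.4 in the other clones, below both parental values. BDKRB2, the bradykinin B2 receptor, was at 14.7 and 11.6 in parental cells, at 203 and 190.4 in clone 10 and at 0 to 5.23 in the other clones. In each of these 6 genes both clone 10 libraries lie above all 8 others, which the rule that picked them favoured. C1QL1 and MAGEA6 complete the 8 higher genes picked by the rule for genes that stand apart, with log2 fold changes of 3.99 and 6.74.

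Other strong gains were shared with some clones. THY1, a surface glycoprotein of fibroblasts and neurons, was at 0.819 and 4.36 in parental cells and at 1087 and 1518 in clone 10. It was at 543 and 749 in clone 4 and at 1237 and 1111 in clone 12, but had no count in clone 11. KRT18, a keratin of simple epithelia, was at 1.64 and 2.18 in parental cells, at 834 and 900.4 in clone 10 and at 1170.2 and 1499 in clone 4, and was at 0 to 3.7 in clones 11 and 12. KRT18 has many processed pseudogenes, so its reads may be split between copies. Clone 10 thus shared each of these gains with a different set of clones. SLC7A8, an amino acid transporter, rose from 3.28 and 2.18 to 226 and 382, and RTN1, a reticulon of neural and endocrine cells, from 12.3 and 23.3 to 956 and 963. BARX2, a homeobox factor, rose by 5.91 ± 0.56 and FIBCD1 by 5.52 ± 0.48 on the log2 scale, completing the 10 largest gains (adjusted p from 4.53e-07 to 3.97e-05 over the 10 genes, edgeR quasi-likelihood test).

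Other genes were far lower in clone 10, some of them nearly absent. SRL, which encodes sarcalumenin, a calcium-binding protein of the muscle sarcoplasmic reticulum, was at 2921 and 2866 in parental cells, at 2836 to 4166 in the other clones and at 142 and 101 in clone 10 (-4.56 ± 0.18, adjusted p = 2.49e-07, edgeR quasi-likelihood test with Benjamini-Hochberg adjustment). CD7, a surface protein best known from T cells, fell from 211 and 219.7 to 16.4 and 5.63, while the other clones were at 465 to 853, above the parental level. SIPA1, a GTPase-activating protein for RAP1, fell from 247 and 244 to 18.2 and 19.2. All 3 genes had both clone 10 libraries below all 8 others, which the choice of genes favoured. TSPYL5 held 1 count in clone 10 against 284 in parental cells and was 217-fold lower (95% counting interval 38.7 to 8614). FBXO17, an F-box protein, held 2 counts against 420 and was 161-fold lower (44.2 to 1331). IGLL5, whose reads may be shared with immunoglobulin lambda genes, fell from 165 and 153 to 5.46 and 10.1.

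A count of 0 in both clone 10 libraries with at least 10 in both parental ones was met in 30 genes, and the reverse in 6. With a minimum of 50 the numbers were 11 and 0. The lost genes include LOC, read-through, small RNA and ribosomal protein names, whose counts may be split between copies or neighbours. RPL21, also among the 11, had 0 reads in 1 library of clones 4, 11 and 12 and 178, 184 and 90 in the other. MAGEA12, RPL19P12 and SNORD22 were below the filter and not tested. EN2, the homeobox gene engrailed 2, had 113 and 110 reads in the parental libraries, 0 in both clone 10 libraries and 70 to 123 in the other clones. It was at least 28.2-fold lower in clone 10, a bound computed against 3 counts per library. FXYD5, a modulator of the sodium pump, had 370 and 471 reads in parental cells and was at least 106-fold lower; clone 12 also had none and clone 4 had 1, while clone 11 had 409 and 400. COL4A5, an alpha chain of basement membrane collagen IV, had 261 and 313 reads in parental cells and was at 0 in all 8 clone libraries, which puts it at least 72.2-fold lower in clone 10. PTN, the growth factor pleiotrophin, was at least 45.8-fold lower, with 0 to 6.16 normalised counts in the other clones. VSTM2L held 2 counts against 433 and was 166-fold lower (45.6 to 1372), with 0 to 2.67 normalised counts in the other clones. Of the 30 lost genes, 2 had at least 10 counts in both libraries of all other clones and 13 in none of them. Among the gained genes, GPRIN3 was at least 18.4-fold higher, HLA-B at least 6.40-fold and SULT1C2 at least 4.98-fold, all from counts of 10 to 54 in clone 10. The other 3 were 2 read-through gene names, whose counts may be split from their neighbours, and SEMA5B, which was below the filter and named here although it was not tested.

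The time-course libraries gave a second set of values for these genes. They come from a PAX3-FOXO1-FKBP line and a FOXO1-FKBP line and share no library with the clone table, and the sources used here do not tell which clone, if any of the 4, the first line is. Each of their columns pools 2 samples and has no replicate error, and the tables were scaled separately, so levels are given as CPM, counts scaled to the total of each library or column. GABRA3 was at 16.8 and 13.9 CPM in clone 10, at 0 to 0.0547 in the other 8 libraries, at 12.6 in the untreated PAX3-FOXO1-FKBP line and at 0.0197 in the untreated FOXO1-FKBP line. SRL was at 6.86 and 4.70 in clone 10, at 125 to 176 in the other 8 libraries, at 2.53 in the PAX3-FOXO1-FKBP line and at 144 in the FOXO1-FKBP line. EN2 was listed at 0 in the PAX3-FOXO1-FKBP line and at 4.76 CPM in the FOXO1-FKBP line. BGN was at 32.4 and 0.664, MAGEA6 at 25.5 and 0.0699, and BST2 at 1.27 and 39.9 in these lines, in the same order. For all 6 genes the first line was nearer to clone 10 than to parental cells, and the second nearer to parental cells than to clone 10. Of the 425 genes that stand apart as higher in clone 10, 422 were in both tables, and for 278 of them (65.9%) the PAX3-FOXO1-FKBP level was nearer to the clone 10 mean than to that of any other group, on log2 of CPM plus 0.5. For the lower genes it was 149 of 354 (42.1%), and over all tested genes 3104 of 14153 (21.9%). In the FOXO1-FKBP line the shares were 7.82%, 9.32% and 11.8%. These counts were chosen after the values of single genes had been seen, carry no test and were used to place no sample in a group.

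Cancer-testis antigen genes are normally expressed in germ cells and silenced elsewhere by promoter DNA methylation. Of 47 on the list, 9 passed the filter, and 1 of these rose and 7 fell, against 27.8% higher and 24.2% lower over all genes. Their median log2 fold change was -3.82. Some passed only through parental cells or another clone, where they are high, so this count and median describe the members that passed and support nothing further. The same holds in part for every list below with members under the filter. MAGEC2 went from 169 and 180.4 normalised counts to 0 in both clone 10 libraries, at least 57.1-fold lower. It was near 0 in clones 4 and 11 but at 589 and 554 in clone 12. MAGEB1 held 1 count against 331 (253-fold lower, counting interval 45.1 to 10034), and CTAG2 1 against 353 (270.1-fold lower, 48.2 to 10699). MAGEB1 was at 152 and 131 in clone 4 and at 434 and 433 in clone 12. The members thus differed between clones rather than being lost together.

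MAGEA3 and MAGEA6 are near-identical neighbours on the X chromosome and moved in opposite directions. MAGEA3 was at 386 and 450.3 in parental cells and 23.7 and 36.1 in clone 10 (-3.82 ± 0.29, adjusted p = 3.41e-05, edgeR quasi-likelihood test with Benjamini-Hochberg adjustment). MAGEA6 was at 8.19 and 5.09 in parental cells and 703 and 725 in clone 10 (6.74 ± 0.30, adjusted p = 7.85e-06), and at 0 in all libraries of the other clones. Reads of such close copies can be assigned to either, and the sources used here do not tell how the authors treated them, so the sum is the safer value. Summed, the pair was at 394 and 455 in parental cells, 727 and 761 in clone 10, 0 in all 4 libraries of clones 4 and 11, and 2.46 and 1.05 in clone 12. The pair was thus present in parental cells and in clone 10 and at or near 0 in the other 3 clones. The 250 bases before the 2 start sites, shown because one gene of the pair rose and the other fell, are identical in RefSeq's GRCh38.p14: 250 of 250 match. They hold 15 CG dinucleotides, the bases that DNA methylation marks, where the median over 27305 such windows is 11 and 42.7% hold as many or more. The sequence below lies at chrX:152769690-152769939 on the minus strand before MAGEA6, and at chrX:152698544-152698793 on the plus strand before MAGEA3, and capitals mark CG.
MAGEA6 and MAGEA3: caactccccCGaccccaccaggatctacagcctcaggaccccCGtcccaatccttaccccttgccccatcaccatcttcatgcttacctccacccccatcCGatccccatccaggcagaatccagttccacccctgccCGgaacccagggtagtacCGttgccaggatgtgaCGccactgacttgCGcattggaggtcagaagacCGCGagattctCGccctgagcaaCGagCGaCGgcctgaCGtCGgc

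Genes of the extracellular matrix and of cell adhesion were more often higher than lower in clone 10, less so for collagens after the GC and length correction. Of 27 collagen genes tested 14 rose and 3 fell (median 0.58), and of 27 integrin and laminin chains 14 rose and 4 fell (median 0.69), against a median of 0.05 and shares of 27.8% higher and 24.2% lower over all genes. After the GC and length correction the collagens were 9 higher and 7 lower (median 0.27) and the integrins and laminins 13 and 5 (0.55). Over all genes 24.5% were higher and 22.6% lower after the correction, and the share of collagens that fell lies near the latter. Of 7 other adhesion matrix genes on the same list, among them FN1 and HSPG2, 5 rose and 0 fell, and 2 and 0 after the correction. COL3A1, the chain of fibrillar collagen III, was at 462 and 474 in parental cells and 20709 and 21460.2 in clone 10 (5.49 ± 0.33, adjusted p = 4.17e-06, edgeR quasi-likelihood test with Benjamini-Hochberg adjustment). Its level in the other clones was 332 to 1929, far below both clone 10 libraries. COL1A1, a chain of collagen I, rose from 306 and 282 to 1209 and 1207 (2.04 ± 0.18, adjusted p = 3.17e-05). Clone 12, at 2656 and 2002, exceeded clone 10. COL1A2, the partner chain of COL1A1, was at 18 and 21.1 in parental cells and 15.5 and 28.2 in clone 10 and did not pass the test (0.13 ± 0.40, adjusted p = 0.796).

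FN1 mRNA, whose product fibronectin links cells to collagen, had 2149 and 2155 normalised counts in parental cells and 8228 and 10131 in clone 10 (2.09 ± 0.33, adjusted p = 0.000533, edgeR quasi-likelihood test with Benjamini-Hochberg adjustment). It was also called higher in clones 4 and 11, at means of 4752 and 6461, and lower in clone 12, at 976. LAMB2, a laminin chain of muscle basement membrane, rose from 999 and 1123 to 3867 and 3164. LAMA1, the alpha chain of laminin-111, went the other way, from 788 and 727 to 2.73 and 5.63 (-7.51 ± 0.37, adjusted p = 9.18e-07), and was at 0 and 1.16 in clone 4 but 332 to 667 in clones 11 and 12. The laminin chains of clone 10 thus moved in both directions. Of 27 matrix proteases and inhibitors 12 rose and 4 fell (median 0.65), against 27.8% and 24.2% over all genes. MMP14, a membrane-bound collagenase that activates MMP2, rose from 5582 and 5542 to 17020.4 and 18682 (1.68 ± 0.14, adjusted p = 1.77e-05). MMP2 itself rose from 7645 and 7521 to 16487 and 16916, and was at a mean of 19279 in clone 12.

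Several of these genes also mark fibroblasts, and the marker lists were read beside them. Of 12 fibroblast markers 8 were tested and 5 rose, with a summed level of 936 and 944 in parental cells and 23752 and 24826 in clone 10, most of it COL3A1. TWIST2 had 0 counts in all 4 libraries, POSTN 0, 0, 0 and 1, and DCN 1 and 1 in parental cells against 7 and 7 in clone 10. The summed muscle and rhabdomyosarcoma markers were at 89205 and 89247 in parental cells and 158658 and 161903 in clone 10. Of 6 epithelial markers tested 3 rose and 1 fell, with KRT5 at 0, and of 7 endothelial markers 3 rose and 1 fell, EGFL7 among those that rose (5.04 ± 0.43) while CDH5 and PECAM1 were not called. Leukocyte markers gave 1 higher of 7 with PTPRC at 0, and B lineage markers 0 of 3 with MS4A1 at 0. Over all genes 27.8% were called higher and 24.2% lower. In bulk RNA a change in the share of cells of a type and a change in RNA per cell cannot be told apart.

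Interferon-stimulated genes, which respond to interferon through STAT factors, moved in both directions. Of 36 on the list 25 were tested, and 12 rose and 2 fell, against 27.8% higher and 24.2% lower over all genes. The median was 0.51 (0.74 after the GC and length correction), while the medians in clones 4, 11 and 12 were -0.02, -0.12 and 0.01. OAS3, an activator of RNase L, was at 2.46 and 1.45 in parental cells and 79.2 and 101 in clone 10 (5.46 ± 0.45, adjusted p = 3.09e-05, edgeR quasi-likelihood test with Benjamini-Hochberg adjustment). IFI6, a mitochondrial protein induced by interferon, rose from 115 and 116 to 675 and 835 (2.71 ± 0.22, adjusted p = 1.77e-05), and IFIT2, an RNA-binding antiviral protein, from 7.37 and 7.27 to 53.7 and 76.6. In all 3 both clone 10 libraries lie above all 8 others. BST2, the membrane tether of budding viruses also called tetherin, fell from 1452 and 1500.1 to 21.8 and 46.2 (-5.47 ± 0.46, adjusted p = 2.39e-05), against 286 to 1554 in the other clones.

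The bases before the start sites of OAS3, IFI6 and BST2 are shown because the first 2 rose and the last fell. Each holds the letters GAAANNGAAA, searched on both strands, a core of the interferon-stimulated response element. The motif is in the 250 bases before the start of 13 of the 20 tested list members with a window (65%), and in 3.07% of all 27305 windows. It was in 5 of 9 members called higher, 2 of 2 called lower and 6 of 9 not called. A match describes letters and is not a measured binding site. The windows are from RefSeq's GRCh38.p14, for OAS3 chr12:112938224-112938473 on the plus strand, for IFI6 chr1:27672193-27672442 and for BST2 chr19:17405631-17405880, both on the minus strand, and capitals mark the motif.
OAS3: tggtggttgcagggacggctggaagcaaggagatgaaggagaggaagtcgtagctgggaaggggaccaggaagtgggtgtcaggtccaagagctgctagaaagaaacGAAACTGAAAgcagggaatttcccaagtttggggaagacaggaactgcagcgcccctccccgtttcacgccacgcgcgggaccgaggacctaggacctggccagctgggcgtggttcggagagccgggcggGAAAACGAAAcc
IFI6: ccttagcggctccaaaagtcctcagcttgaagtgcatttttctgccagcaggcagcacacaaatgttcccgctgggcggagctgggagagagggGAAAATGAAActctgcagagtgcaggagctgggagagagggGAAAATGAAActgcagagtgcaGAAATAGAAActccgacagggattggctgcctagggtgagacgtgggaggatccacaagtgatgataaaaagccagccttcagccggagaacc
BST2: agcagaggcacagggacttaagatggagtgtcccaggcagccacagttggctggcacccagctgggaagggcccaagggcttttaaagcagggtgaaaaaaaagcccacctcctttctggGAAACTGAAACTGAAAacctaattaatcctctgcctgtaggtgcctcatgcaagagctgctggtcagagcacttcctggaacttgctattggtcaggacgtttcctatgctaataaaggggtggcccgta

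Antigen presentation genes, which load and display peptides on the cell surface, mostly rose where they could be tested. Of 21 on the list 12 passed the filter, 11 of them called higher and none lower, against 27.8% and 24.2% over all genes. The median was 2.33 (1.79 after the correction). Some members passed only through their counts in the clones, so this count and median describe the list and support nothing further. TAP1, a subunit of the peptide transporter, rose from 14.7 and 10.2 normalised counts to 71.9 and 101 (2.79 ± 0.41, adjusted p = 0.000359, edgeR quasi-likelihood test with Benjamini-Hochberg adjustment). NLRC5, the activator of class I genes, rose from 61.4 and 60.4 to 227 and 217, and TAPBP, which bridges transporter and class I molecules, from 548 and 607 to 1338 and 1286. HLA-C held 2 counts in parental cells and 88 in clone 10, 57.5-fold higher (counting interval 15.5 to 482), and reads of class I genes may be split between copies. B2M, the shared light chain of class I molecules, was abundant throughout, at 7728 and 7742 in parental cells and 6092 and 8399.7 in clone 10 (-0.09 ± 0.18, adjusted p = 0.679). After the GC and length correction B2M was called higher (0.47, adjusted p = 0.00753). Clone 12 shared the list's rise, with a median of 2.16 against parental cells, while clones 4 and 11 were at 0.21 and 0.30. Those medians share the parental libraries with that of clone 10.

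**Figure D2:**
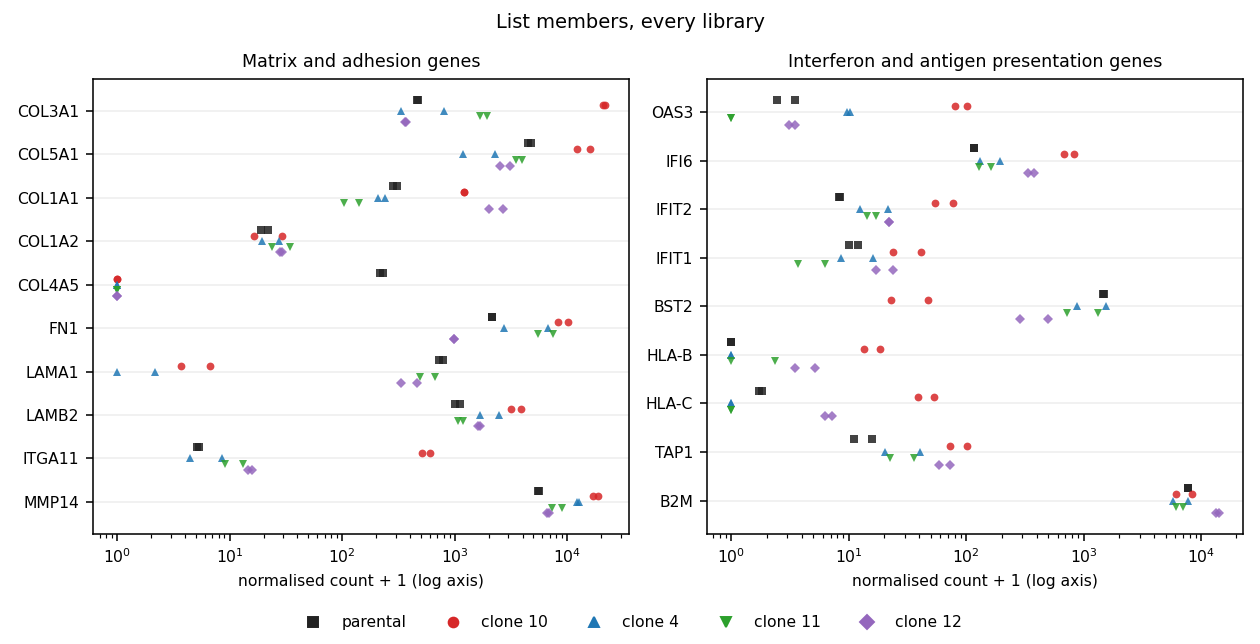
Normalised counts per library on a log axis for 10 matrix and adhesion genes and 9 interferon and antigen presentation genes, with 1 point per library and 1 colour per group. COL3A1, ITGA11, OAS3 and IFI6 have both clone 10 points above all others, and BST2 has both below.

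Muscle genes were mostly higher. Of 47 contractile and differentiation genes tested, 28 rose and 3 fell, with a median of 0.87, against 27.8% higher and 24.2% lower over all genes. After the correction 21 of 45 were higher and 4 lower (median 0.61). Clones 4, 11 and 12 had medians of 0.75, 0.56 and 0.96 against the same parental libraries. MYOD1, the factor that commits cells to muscle, rose from 25944 and 25631 to 51365 and 53679.7 (1.03 ± 0.15, adjusted p = 0.000293, edgeR quasi-likelihood test with Benjamini-Hochberg adjustment), and MYOG, which drives terminal differentiation, was at 7177 and 7361 in parental cells and 8739 and 9380.1 in clone 10 without passing it (0.32 ± 0.15, adjusted p = 0.087). DES, the muscle intermediate filament desmin, rose from 9495 and 9708 to 31453 and 34908 (1.79 ± 0.15, adjusted p = 2.23e-05). Of the myosin heavy chains, MYH2 of fast fibres rose from 16.4 and 10.9 to 119 and 100.3, MYH7 of slow fibres from 13.9 and 20.4 to 134 and 96.9, and MYH8 of perinatal muscle from 26.2 and 22.6 to 195 and 124.

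CKM, the muscle creatine kinase, fell from 243 and 215 to 64.6 and 65.4 in clone 10 (-1.81 ± 0.26, adjusted p = 0.000321, edgeR quasi-likelihood test with Benjamini-Hochberg adjustment) and was at 341 to 684 in the other clones. MYL2, a slow-muscle myosin light chain, held 2 counts in clone 10 against 47 in parental cells (18-fold lower, counting interval 4.71 to 153). Against parental cells, clone 10 thus had more DES, MYH2, MYH7 and MYH8 mRNA and less SRL and CKM mRNA. In level, these myosin heavy chains and SRL lay near each other in clone 10. DES was also called higher in clones 4, 11 and 12, at means of 16043, 21796 and 29122 normalised counts. Among 16 myogenic transcription factors 2 rose and 4 fell. Over all genes 27.8% were higher and 24.2% lower, and the share that fell lies near the latter. After the correction MYOD1, MEF2C and TCF4 were called higher and TCF3, EYA1, EYA2 and ID4 lower. ID4, an inhibitor of such factors, fell most strongly, from 42.6 and 33.5 to 2.73 and 2.25.

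Published PAX3-FOXO1 targets, collected from general knowledge of the fusion, moved in both directions. Of 40 tested, 6 rose and 10 fell (median -0.01), against 27.8% higher and 24.2% lower over all genes. As counted, the share that fell lies near the latter and the share that rose lies below the former. After the correction 6 rose and 18 fell (-0.23), against 24.5% and 22.6% over all genes. PIPOX, a peroxisomal oxidase used as a marker of fusion-positive tumours, fell from 2437 and 2520.0 to 322 and 322 (-2.94 ± 0.23, adjusted p = 1.2e-05, edgeR quasi-likelihood test with Benjamini-Hochberg adjustment), against 1027 to 2111 in the other clones. POU4F1, a neural POU-domain factor, fell from 5962 and 5902 to 2812 and 2406. CNR1, the cannabinoid receptor 1, fell from 215 and 195 to 63.7 and 39.4. ADRA2A, an adrenergic receptor, rose from 71.3 and 65.5 to 238 and 193, as it did in clones 4 and 11 at 192 to 258. EPHA4, an ephrin receptor, rose from 199.8 and 248 to 924 and 901, against 62.5 to 228 in the other clones.

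The time course of the PAX3-FOXO1-FKBP line gave target lists taken from other libraries. Genes at least 2-fold lower than DMSO at 6, 24 and 72 h of 500 nM dTAG were 109, all tested here: 25 were higher and 35 lower in clone 10, with a median of 0.04 (30 and 35 of 100 after the correction, median -0.25). Genes at least 2-fold higher at 24 and 72 h were 152, of which 147 were tested: 83 were higher and 14 lower in clone 10, with a median of 0.87 (64 and 17 of 133 after the correction, 0.74). Over the 12294 genes tested in both tables, 3620 were higher and 2998 lower, with a median of 0.07. The medians of the first list in clones 4, 11 and 12 were 0.35, -0.06 and -1.03 and of the second 0.44, 0.23 and 1.09, each against the same parental libraries. Both lists could hold only genes expressed in the time-course line, whose levels for genes that stand apart lay near those of clone 10, as given above. The part this has in the counts was not tested.

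Single members showed both patterns. SLC24A3, a sodium-calcium exchanger, rose from 2.46 and 10.2 in parental cells to 196 and 157 in clone 10 (4.74 ± 0.44, adjusted p = 3.69e-05, edgeR quasi-likelihood test with Benjamini-Hochberg adjustment), and in the time course it went from 245 normalised counts in DMSO to 791 at 24 h. PAMR1 rose from 37.7 and 35.6 to 353 and 534, and GPNMB, a transmembrane glycoprotein, from 11.5 and 26.2 to 204 and 309. SRL and CKM were on the same list and fell in clone 10. In the time course SRL went from 71.9 in DMSO to 529.9 at 72 h, and CKM from 51.5 to 1043. On the list of genes lower after dTAG, POU3F3, a POU-domain factor, rose in clone 10 from 22.1 and 10.2 to 188 and 133 (3.33 ± 0.35), while PIPOX, POU4F1 and CNR1 fell. POU4F1 went from 6923 in DMSO to 764 at 72 h in the time course.

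**Figure D3:**
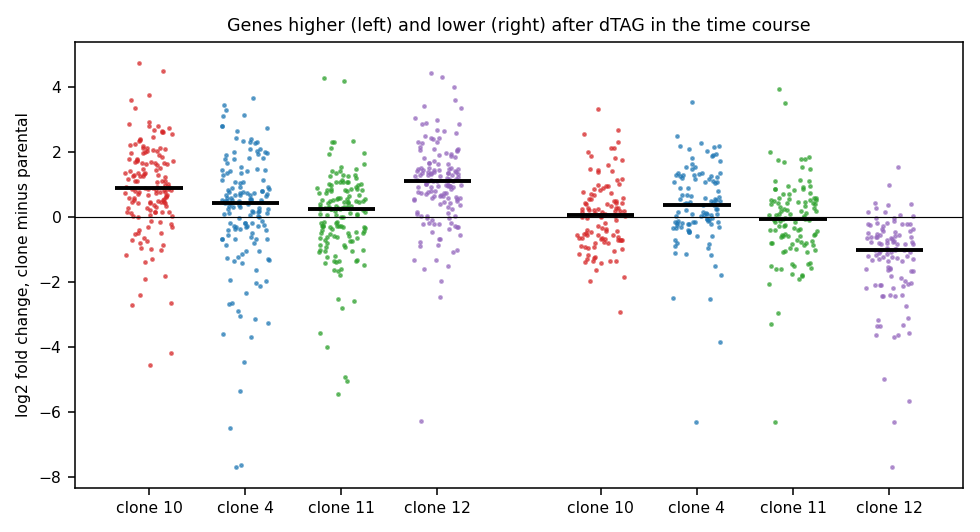
Log2 fold change against parental cells of genes that were higher (left) or lower (right) after dTAG in the time course, in clones 10, 4, 11 and 12; each point is 1 gene and the bar is the median. The clone 10 medians are 0.87 and 0.04, and all 4 clones are set against the same 2 parental libraries.

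Of 25 G2/M genes 2 rose and 12 fell (median -0.35), and 1 rose and 10 fell after the correction (-0.22). Of 27 S phase genes 6 rose and 7 fell, and 4 and 9 after the correction. Over all genes 27.8% were higher and 24.2% lower, and the S phase shares lie near these. CDK1, the mitotic kinase, fell from 3502 and 3598 to 928 and 1313 (-1.66 ± 0.25, adjusted p = 0.000375, edgeR quasi-likelihood test with Benjamini-Hochberg adjustment), and by 0.77 on the log2 scale after the correction. MCM2, a subunit of the replicative helicase, rose from 6161 and 6112 to 15396 and 13099.9. CCNE2, cyclin E2, fell from 1121 and 1125 to 399.5 and 513. All 3 lay on the same side of the parental level in clones 4, 11 and 12, with CDK1 at 1076 to 2015 there.

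YAP/TEAD-responsive genes, which follow cell contact and tension, were mostly higher. Of 20 tested 12 rose and 1 fell, against 27.8% higher and 24.2% lower over all genes. The median was 0.80 in clone 10 (0.64 after the correction), while it was 0.59 in clone 4, -0.82 in clone 11 and 0.11 in clone 12. CTGF, a secreted matrix-associated protein, rose from 278 and 304 to 1002 and 1002 (1.78 ± 0.20, adjusted p = 0.000101, edgeR quasi-likelihood test with Benjamini-Hochberg adjustment), and AMOTL2, an angiomotin, from 727 and 779 to 4484 and 3163 (2.34 ± 0.31, adjusted p = 0.000211). Of 5 IGF-binding proteins tested, which hold insulin-like growth factors outside cells, 4 rose and 0 fell, against the same shares over all genes. Of the 3 IGF2BP genes on the same list, whose products bind IGF2 mRNA, IGF2BP3 fell (-0.80 ± 0.17) and the other two were not called. IGFBP4 rose from 255 and 251 to 1229 and 1573 and IGFBP2 from 3556 and 3661 to 8558 and 13139.

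Potassium channel genes, 30 tested of 64, had 13 higher and 4 lower members, against 27.8% and 24.2% over all genes. Of the 30, 5 stood apart as higher, against 3% over all genes. After the correction 7 were higher and 9 lower, against 24.5% and 22.6% over all genes, and the share that rose lies near the former. KCND3, a voltage-gated channel, rose from 3.28 and 2.91 to 99.2 and 104 (4.98 ± 0.43, adjusted p = 2.4e-05, edgeR quasi-likelihood test with Benjamini-Hochberg adjustment), and the inward rectifier KCNJ4 from 8.19 and 8.73 to 141 and 108. Clustered protocadherins, cell-surface proteins chosen stochastically in neurons, gave 9 higher and 8 lower of 36, near the shares of 27.8% and 24.2% over all genes. Of the 36, 6 stood apart as higher, against 3% over all genes. After the correction 6 were higher and 9 lower, and 4 stood apart as higher, against 4.02% over all genes. PCDHGB1 rose from 147 and 94.6 to 876 and 683 and was at 56.1 to 218 in the other clones. Isoforms of the protocadherin clusters share their last exons, so their reads can be split between names. Of 21 imprinted genes 4 rose and 8 fell, against 27.8% and 24.2% over all genes. GRB10, an adaptor of growth factor receptors, held 3 counts in clone 10 against 64 in parental cells (16.3-fold lower, counting interval 5.34 to 81.2).

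**Figure D4:**
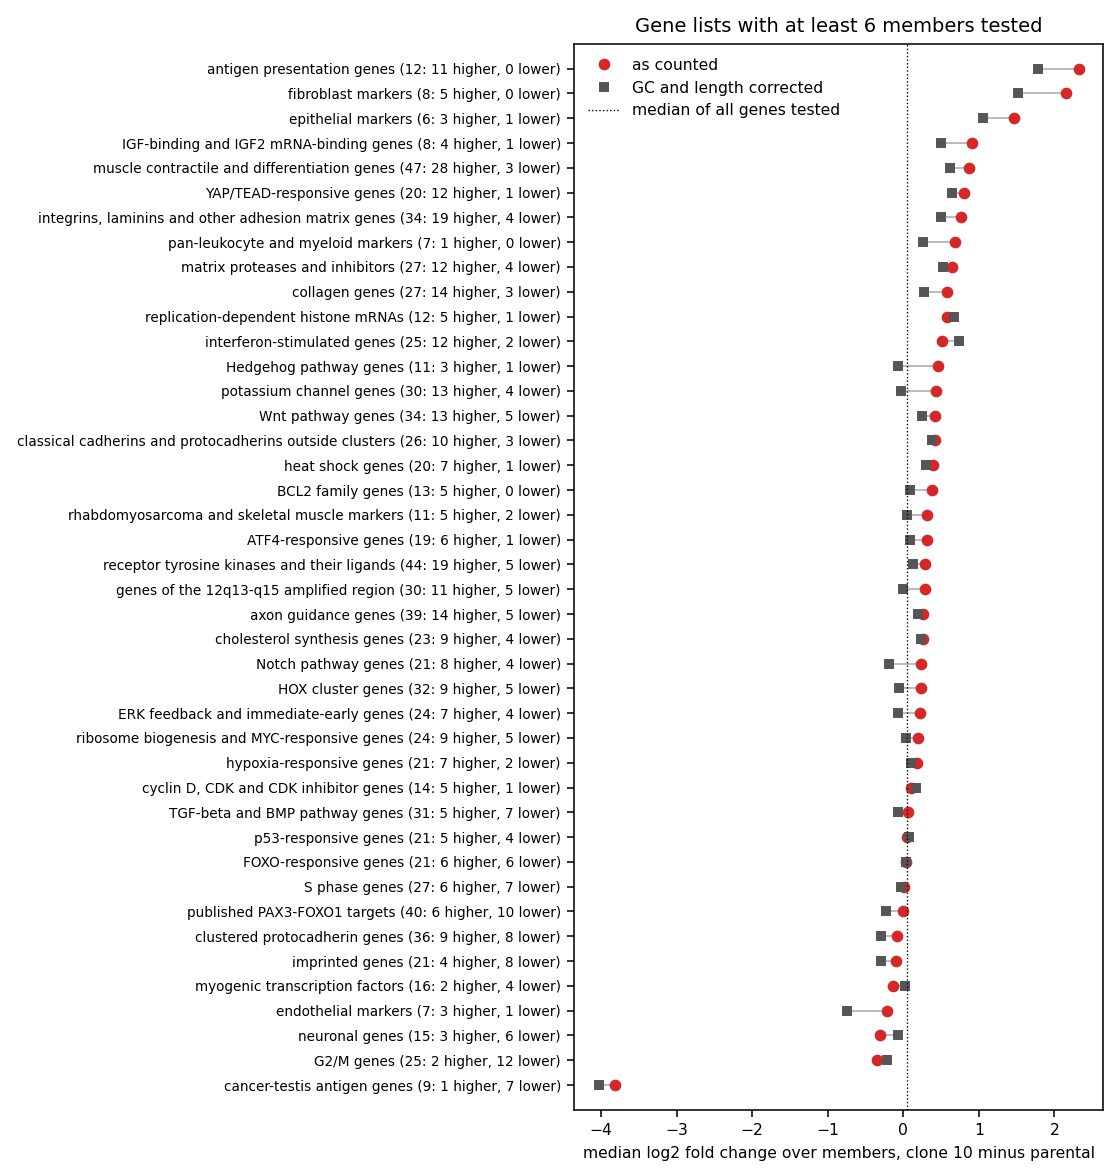
Median log2 fold change of clone 10 minus parental for each list with at least 6 tested genes, as counted (circles) and after the GC and length correction (squares), with the counts of higher and lower genes in the labels; the dotted line is the median of all genes, 0.05. Medians cover the members that passed the filter, some of them only through the group where they are high, so the order of the lists is not a result. Most lists lie nearer to 0 with the correction.

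Neighbouring genes were read in RefSeq gene order, in windows of 25 consecutive tested genes. The window with the lowest median, -1.57, ran from ZNF14 to ZNF681, and 24 of its 25 zinc finger genes were called lower. The same window was at -1.50, -1.83 and -1.66 in clones 4, 11 and 12 against the shared parental libraries and at -0.93 in clone 10 after the correction. These zinc finger transcripts have a low median GC content of 37.3%. After the correction, the window from BPHL to TFAP2A was among the lowest at -1.05 (-0.98 as counted, 18 called lower and 2 higher), and it was at -1.03, -0.97 and -0.55 in clone 10 against clones 4, 11 and 12. The window from IRX2 to CDH6 was among the highest at 0.79 (0.68 as counted, 15 higher and 3 lower), and at 0.77, 0.56 and 0.61 against those clones. DNA copy number was not measured in these samples.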

How the data were processed

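RNA-seq libraries of parental Rh30 and of clone 10 were compared, with clones 4, 11 and 12 in the same fit. The clone table holds raw read counts per gene deposited by the authors, 1 column per library. Estimated counts of the time course were deposited by the authors with 1 column for each condition per the file headers, which pools its 2 samples. Trimmomatic 0.32, Bowtie2, Cuffdiff 2.1.1 and the build hg19 are listed, without roles, per the submitters' processing notes. No hg19 annotation was used, gene order and sequences came from RefSeq (GRCh38.p14), and GC content and length from GENCODE transcripts matched by symbol.

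The quasi-likelihood F test of edgeR 4.0.16 under R 4.3.3 was fitted to the 10 libraries of the clone table with a mean for each group, TMM scaling, the filterByExpr filter (minimum count 10) and 5 residual degrees of freedom. Genes were called at an adjusted p under 0.05, by the Benjamini-Hochberg method over the tested genes. Errors of fold changes are standard errors computed as the log2 fold change over the square root of F. Normalised counts are scaled to the mean effective library size. Where a group had no counts, folds are bounds against 3 counts per library, and with 1 to 3 counts the ratio carries a 95% exact (Clopper-Pearson) interval. Both cover counting error only. On simulated counts of 13628 genes the test recovered 69 of 100 2-fold and 100 of 100 4-fold changes with 14 false calls. The simulation gave all groups the parental means apart from the changed genes, the same spread, and no GC or length trend. The measured libraries differ in these respects, so the simulation does not give the rate of false calls among them.

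The genes compared, the 45 gene lists and the tests were chosen with earlier results of these data known. Named genes were PAX3 and FOXO1, the 10 largest changes each way among called genes whose mean reached 50 normalised counts and whose groups did not overlap, up to 8 genes each way that stand apart, up to 5 on and 5 off genes, and the called members of each list with the lowest p, at most 4. LOC, antisense, read-through, histone, small RNA and ribosomal protein names were left out of the ranked choices. COL1A2, FN1, IFIT2, B2M, MYOG, CKM, MYL2, EPHA4, SLC24A3, PAMR1, GPNMB, POU3F3, GRB10, SEMA5B and SNRPN fall outside this rule in full or in part and were chosen after their values were seen. Time-course sets used TMM-normalised columns with a prior count of 2 and a mean of at least 50. Since the design foresaw 1 time-course column per library, a rule of size replaced a test there. Windows of neighbouring genes covered 13626 tested genes (96.1%). Alternatives were DESeq2 1.42.0, other scalings and filters, each library left out, a replicate block and, after the data were seen, the GC and length correction and the parental libraries summed as 1.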

Additional observations from a re-analysis of the deposited data

Results flagged for a closer look

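Clone 10 differed from the other clones as well as from parental cells, by tests of the difference itself, in 425 higher and 354 lower genes. Called against parental in one direction in clone 10 and in the opposite direction in another clone, and called between these 2 clones, were 276 genes for clone 4, 381 for clone 11 and 296 for clone 12. For 35 genes clone 10 went one way and all 3 other clones the opposite way. These counts share the parental libraries. BGN (5.08), BDKRB2 (3.89) and MAGEA6 (6.74) rose in clone 10 and were called lower in each other clone, on the log2 scale, and CD7 (-4.22) fell in clone 10 and was called higher in each other clone. MAGEA6 was only at 8.19 and 5.09 normalised counts in parental cells, and its reads may be shared with MAGEA3.

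Others of the 35 were less extreme. KCP (-2.02 ± 0.40, adjusted p = 0.00185, edgeR quasi-likelihood test with Benjamini-Hochberg adjustment), CKM (-1.81) and the imprinted gene SNRPN (-0.93) fell in clone 10 alone and were higher in the other 3 clones. PMP22, a myelin and membrane protein, was at a mean of 389 normalised counts in parental cells, 610.2 in clone 10 and 99.4, 166 and 125 in clones 4, 11 and 12. ITGA4, the alpha 4 integrin subunit, was at 355, 573 and then 190.3, 142 and 184. COBL, an actin nucleator, was at 2.64 in parental cells, 54.9 in clone 10 and 0 in all libraries of the other clones. Its fall from parental cells to those clones starts from few counts. The genes of this paragraph were chosen after their values were seen.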

How the results depend on the processing

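Left out in turn, single libraries moved the genes called higher between 2370 and 4062 and those called lower between 2216 and 4193, with the lowest numbers in both cases without parental replicate 2. For changes of at least 2-fold the ranges were 1217 to 1420 higher and 1450 to 1947 lower, and for genes that stand apart 180 to 684 higher and 145 to 526 lower, lowest without clone 10 replicate 1 and highest without clone 4 replicate 1. With the parental libraries summed as 1, 2444 genes were called higher and 2320 lower and 281 stood apart as higher. DESeq2 called 3411 higher and 3376 lower. The GC and length correction left 896 higher and 979 lower genes at 2-fold, gave -1.08 for the lowest window of 25 neighbouring genes, and took the time-course medians to -0.25 (lower after dTAG) and 0.74 (higher after dTAG). A 4-fold rule for those sets gave -0.23 and 1.11. With windows of 40 genes the extreme medians were 0.87 and -1.35, and with a minimum of 50 counts 0 genes were on and 11 off. Under scaling by library totals the median of all genes moved by -0.12. SUFU, a Hedgehog inhibitor called higher at 0.51, was at -0.019 after the GC and length correction (adjusted p = 0.885, edgeR quasi-likelihood test), and 14 other named genes of 182 lost their call under it. The cause of these moves was not tested.

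Deviations of same-numbered libraries correlated at 0.02, 0.02 and 0.01 between parental cells and clones 4, 10 and 11. The parental libraries differ little from each other (chi-square per degree of freedom 1.82), which leaves mostly counting noise to correlate. These values therefore cannot tell whether replicate numbers pair parental libraries with clones. Among clones 4, 10 and 11 the deviations correlated at 0.36, 0.16 and 0.15, all above 0.1. The numbers may thus pair these clones, whose differences enter the genes that stand apart. With the number as a replicate block and without clone 12, whose labels carry other numbers, 3695 genes were called higher and 4010 lower, and 742 stood apart as higher and 624 as lower. Without the block on the same libraries these were 3298, 3639, 582 and 485. Depth limits the genes with few counts in both groups, of which 9086 were not tested.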
